A study of Mus musculus with 8 samples.

Results

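The 10 genes described here make, carry, sense and break down retinoic acid: Aldh1a1, Aldh1a2, Aldh1a3, Rdh10, Dhrs3, Dhrs9, Rara, Rxra, Crabp2 and Cyp26b1. They were chosen by name for their place in this pathway, and each was measured by the only probe set that the platform's annotation gives to that gene alone. All 10 were found among 22180 genes tested. Their levels were compared between CD103+ CD11b+ conventional dendritic cells (cDC) that carry the hBcl-2 transgene, human BCL2 driven by the promoter of CD11c, and the same cells of wild-type control littermates. Mice were C57BL6 males on control chow, 8 weeks of age, and the cells were sorted by flow cytometry from their mesenteric lymph nodes. Each genotype has 4 arrays, each hybridised with pooled RNA of 2 to 3 samples. The labels do not tie animals to pools, so the p-values measure the spread between these pools. CD11c is found on most dendritic cells and on some other cells of the mouse, so the transgene was not limited to the sorted cells.

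Retinoic acid is made from vitamin A in steps. Retinol dehydrogenases turn retinol into retinal, reductases turn retinal back into retinol, and the retinal dehydrogenases of the ALDH1A family oxidise retinal to retinoic acid, which then binds nuclear receptors of the RAR and RXR families until CYP26 enzymes break it down. Intestinal CD103+ dendritic cells are known for making retinoic acid with ALDH1A2 and carrying this capacity to the mesenteric lymph nodes, where retinoic acid induces gut-homing receptors on T and B cells and favours regulatory T cells.

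None of the 10 genes passed limma's test at an adjusted p below 0.05, a threshold that 1.69% of all genes passed. The lowest differences belonged to Dhrs3, which encodes a reductase of retinal, and Aldh1a2, which encodes the retinal dehydrogenase of intestinal dendritic cells. On these 2 genes every transgenic array lay below every wild-type array. The signal of Dhrs3 in transgenic arrays was 66.0% of the wild-type signal and that of Aldh1a2 was 69.4%. The other 8 genes had overlapping groups and differences between -0.25 and 0.32 on the log2 scale.

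The 250 bases before the annotated start of each of these 2 genes are given here because they are the members whose groups separated. They come from RefSeq, build GRCm38.p6, both on the plus strand, at chr9:71215539-71215788 for Aldh1a2 and chr4:144892577-144892826 for Dhrs3, the first of 3 annotated starts of that gene. Capitals mark the dinucleotide CG.
Aldh1a2: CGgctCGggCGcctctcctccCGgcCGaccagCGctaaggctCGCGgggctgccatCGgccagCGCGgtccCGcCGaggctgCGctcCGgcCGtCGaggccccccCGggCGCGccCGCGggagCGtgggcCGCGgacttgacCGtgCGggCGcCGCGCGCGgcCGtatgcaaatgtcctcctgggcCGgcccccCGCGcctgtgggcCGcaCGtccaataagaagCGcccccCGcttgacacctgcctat
Dhrs3: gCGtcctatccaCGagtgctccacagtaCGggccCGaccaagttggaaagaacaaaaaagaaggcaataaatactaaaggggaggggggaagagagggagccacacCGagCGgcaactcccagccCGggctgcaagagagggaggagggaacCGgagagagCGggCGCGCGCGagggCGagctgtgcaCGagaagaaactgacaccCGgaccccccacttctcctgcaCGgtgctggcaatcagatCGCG
The Aldh1a2 stretch holds 40 CG dinucleotides and is 77.6% G and C, and 1.31% of 32851 promoter stretches of this length hold as many CG. The first Dhrs3 stretch holds 19, a number reached by 19.7%.

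Promoter sequences were found for 7 of the 10 genes, in 14 windows of 300 bases (250 before and 50 after a start). They were searched on both strands for AGGTCA and AGTTCA, the 6-base sites that retinoic acid receptors bind, and for GGGCGG, the GC box. Over all 32851 promoter windows, 16.3% hold AGGTCA, 14% hold AGTTCA and 35.7% hold GGGCGG. The windows of Aldh1a1, Aldh1a2 and Dhrs3 hold none of these. AGGTCA was found in a window of Dhrs9, Rara and Rxra, AGTTCA in a window of Rara, and GGGCGG in windows of Dhrs9, Rara, Rxra and Cyp26b1. The 6-base sites repeated in the same direction with 5 (DR5) or 2 bases (DR2) between them, which would contain the single sites above, were found in none of the 14 windows and in 0.0396% of all windows for each spacing.

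The levels are log2 signals as deposited, on which a difference of 1 is a doubling. They ran from 2.11 to 13.95, with array medians of 5.05 to 5.15. As a measure of background, the 1432 genes of olfactory, vomeronasal and taste receptors had a median level of 3.35, and 95% of them lay below 5.32. A gene below 5.32 in both groups is called dim here. The defining genes of cDC were bright on every array: 7 measured markers, among them Flt3, Zbtb46, Itgax, H2-Ab1 and Ccr7, averaged 11.25 to 11.38 in wild-type and 10.92 to 11.31 in transgenic arrays. Of the genes of the sorting markers, Itgae (CD103) lay at 5.66 and 5.40 and Itgam (CD11b) at 5.57 and 5.58, little above background in both groups. Genes that mark the sorted cells went both ways between the groups, more of them lower than higher. Esam, an adhesion molecule of CD11b+ cDC, fell (-0.62, SE 0.12, adjusted p = 0.0320 in limma, no overlap). The growth factor receptor Flt3 (-0.37, SE 0.16) and the MHC class II gene H2-Ab1 (-0.25, SE 0.11) were lower without overlap but did not pass, and Zbtb46, a transcription factor of cDC, was at -0.42 (SE 0.16) with overlap. Also lower with overlap were Clec4a4 (-0.50, SE 0.39), Itgae (-0.26, SE 0.17), H2-Aa (-0.23, SE 0.12), Irf4 (-0.11, SE 0.19) and Dpp4 (-0.09, SE 0.10). Higher with overlap were Cd24a (0.70, SE 0.24, adjusted p = 0.209 in limma), Sirpa (0.25, SE 0.15), Itgax (0.17, SE 0.15), Ccr7 (0.07, SE 0.10) and Itgam (0.01, SE 0.13). The part of these markers in the values of the retinoic acid genes was not tested. Transgenic replicate 4 was least like its own group (mean r over all genes 0.974, where the other 7 arrays had 0.980 to 0.988), and transgenic replicate 2 had the highest list means for markers of several other cell types, given below. The probes are made for mouse genes, so the human transgene itself was not checked.

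**Figure D1:**
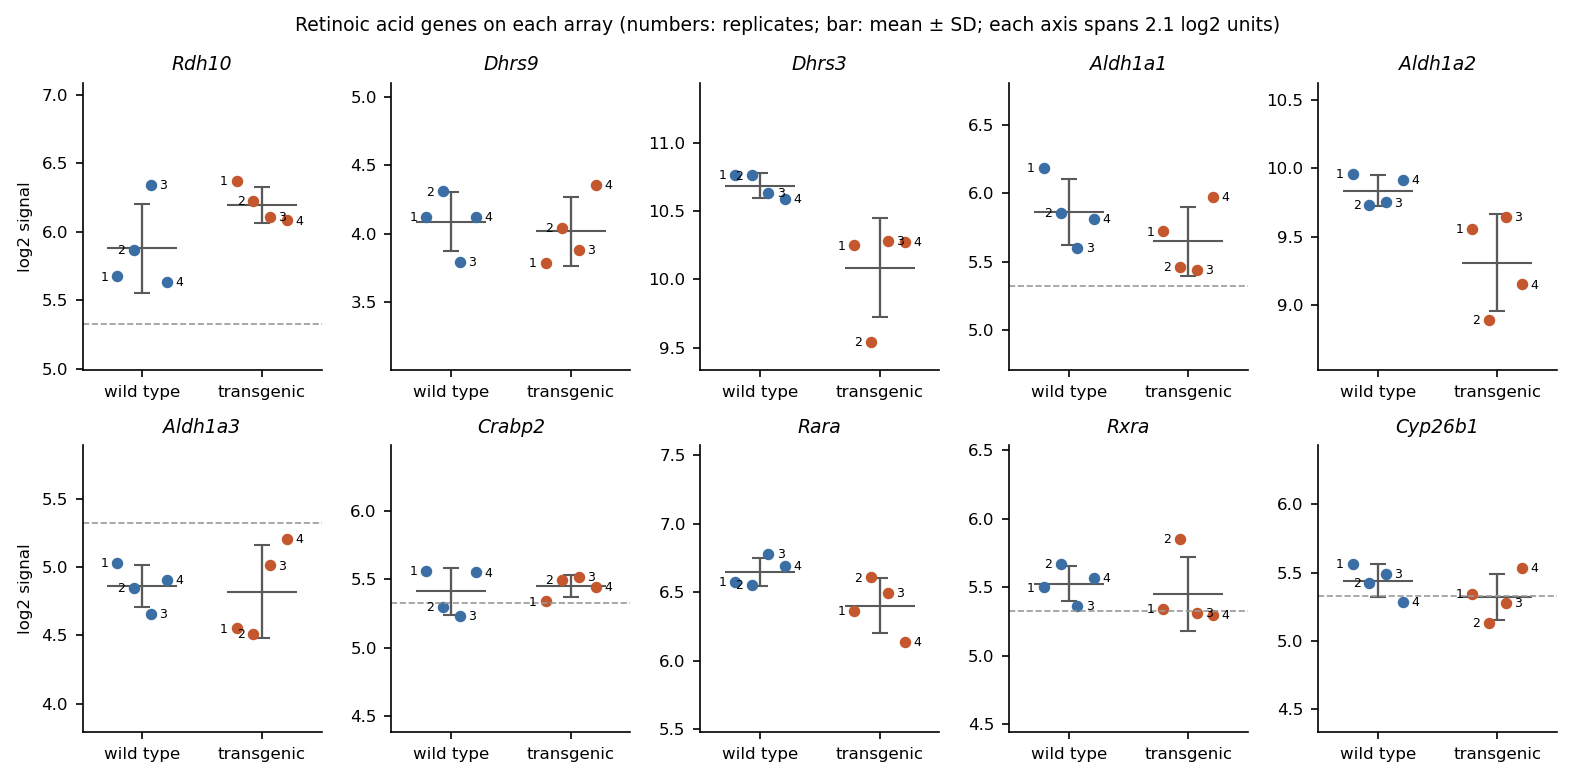
Log2 signal of the 10 retinoic acid genes on each array (points, numbered by replicate), with the mean and SD of the 4 wild-type and 4 transgenic arrays; the dashed line is the background level of 5.32. The groups separate for Dhrs3 and Aldh1a2, and transgenic replicate 2 is the lowest array for both.

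The first step, from retinol to retinal, is measured here by Rdh10 and Dhrs9. Rdh10, the main retinol dehydrogenase of retinoic acid synthesis, gave 5.67, 5.87, 6.34 and 5.63 on wild-type replicates 1 to 4 and 6.37, 6.22, 6.11 and 6.08 on transgenic replicates 1 to 4. The transgenic arrays lay above 3 of the 4 wild-type arrays, and wild-type replicate 3 lay among them. The difference was 0.32 (SE 0.16, 95% interval -0.04 to 0.68), the highest of the 10 genes, with an adjusted p of 0.446 in limma. Without wild-type replicate 3, the highest wild-type array, it was 0.47 (SE 0.13, unadjusted p = 0.00459 and adjusted p = 0.161 in limma). Every transgenic array then lay above every remaining wild-type array. That was the largest difference of Rdh10 with an array left out. The smallest was 0.24 without wild-type replicate 4 (SE 0.17, unadjusted p = 0.197 and adjusted p = 0.674 in limma). Dhrs9, whose product can also oxidise retinol, was dim, with 3.79 to 4.31 in wild-type and 3.78 to 4.35 in transgenic arrays. Its interval of -0.41 to 0.27 rests on values at background.

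Dhrs3 acts in the opposite direction. Its product reduces retinal to retinol, which lowers the supply for retinoic acid, and the gene is itself known to be induced by retinoic acid. Dhrs3 gave 10.76, 10.76, 10.63 and 10.59 on wild-type replicates 1 to 4 and 10.25, 9.54, 10.28 and 10.27 on transgenic replicates 1 to 4. The wild-type arrays lay close together, 3 transgenic arrays formed a tight group just below them, and transgenic replicate 2 lay far below the rest. The means were 10.69 ± 0.09 and 10.09 ± 0.36 (SD, n = 4 each), a 1.51-fold lower transgenic level. The log2 difference was -0.60 (SE 0.17, 95% interval -0.97 to -0.22), with an unadjusted p of 0.00499 and an adjusted p of 0.120 in limma. Without transgenic replicate 2 the difference was -0.42 (SE 0.11, adjusted p = 0.140 in limma), and every remaining transgenic array was still below every wild-type array.

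The second step, from retinal to retinoic acid, belongs to the ALDH1A family. Aldh1a2, the gene known for this step in intestinal dendritic cells, gave 9.96, 9.73, 9.75 and 9.91 on wild-type replicates 1 to 4. The transgenic values were 9.56, 8.89, 9.64 and 9.15. Transgenic replicates 1 and 3 lay just under the lowest wild-type array, and replicates 2 and 4 lay well below it. The means were 9.84 ± 0.11 and 9.31 ± 0.35 (SD, n = 4 each), a 1.44-fold lower transgenic level, with a log2 difference of -0.53 (SE 0.17, 95% interval -0.90 to -0.16). The unadjusted p was 0.00998 and the adjusted p 0.172 in limma. Replicate 4 also had the lowest mean of the cDC markers, 10.92. Replicate 2 had the highest means of the cDC1, monocyte, NK, plasmacytoid and macrophage markers and, by little, of the CD103+ CD11b+ and stromal markers. The part of these markers in the result was not tested. Without both, the difference was -0.24 (SE 0.12), with an unadjusted p of 0.0895 and an adjusted p of 0.464 in limma, while for Dhrs3 it was -0.42 (SE 0.12, adjusted p = 0.167).

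The sister genes Aldh1a1 and Aldh1a3 gave no such separation. Aldh1a1, which encodes a retinal dehydrogenase found in many epithelia, gave 6.19, 5.86, 5.60 and 5.81 in wild-type and 5.72, 5.46, 5.44 and 5.98 in transgenic arrays. These levels lay above background, and 2 transgenic arrays were below every wild-type array while the other 2 lay among them. The difference was -0.21 (SE 0.16, 95% interval -0.57 to 0.14, adjusted p = 0.655 in limma), and leaving out wild-type replicate 1 gave -0.11, leaving out transgenic replicate 4 gave -0.32. Aldh1a3 was dim on all 8 arrays, with 4.66 to 5.03 in wild-type and 4.51 to 5.21 in transgenic arrays. Aldh1a7, a close copy of Aldh1a1 in the mouse that can share probes with it, was dim too (4.47 and 4.60).

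**Figure D2:**
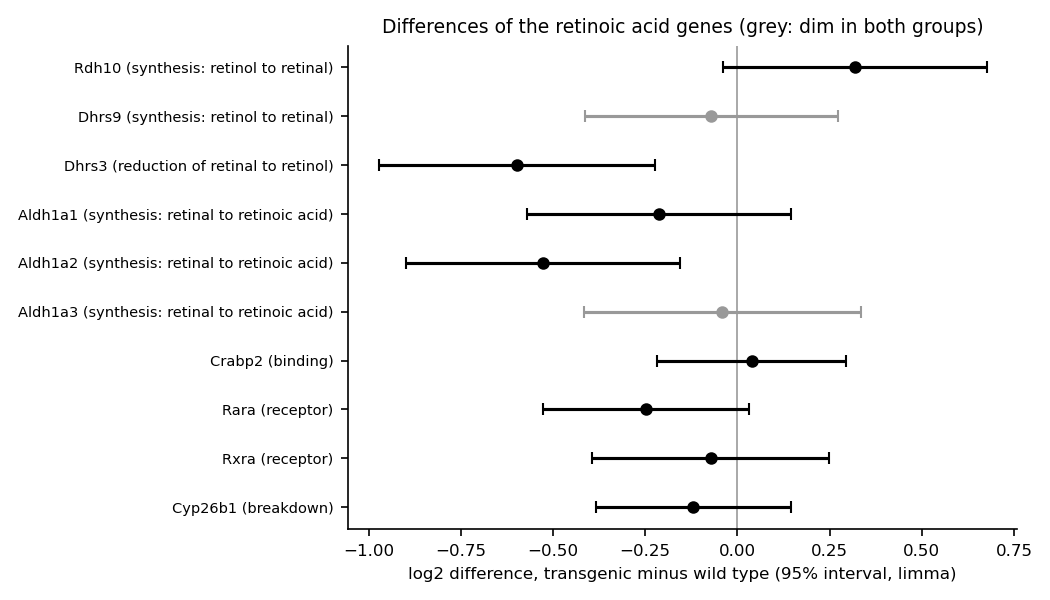
Log2 difference (transgenic minus wild type) of each of the 10 genes with its 95% interval from limma, ordered by step of the pathway; the 2 genes dim in both groups are grey. The intervals of Dhrs3 (-0.97 to -0.22) and Aldh1a2 (-0.90 to -0.16) lie below 0, and those of the other 8 genes include 0.

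Retinoic acid is carried to its receptors by CRABP2, and the receptors bind DNA as pairs of a RAR and an RXR. Crabp2 lay little above background, with 5.23 to 5.56 in wild-type and 5.34 to 5.52 in transgenic arrays, and its difference was 0.04 (SE 0.12, 95% interval -0.22 to 0.30). Rara, which encodes the receptor RAR alpha, gave 6.57, 6.55, 6.78 and 6.69 on wild-type replicates 1 to 4 and 6.36, 6.61, 6.50 and 6.14 on transgenic replicates 1 to 4. For Rara 3 of the 4 transgenic arrays lay below every wild-type array, and transgenic replicate 2 lay within the wild-type range. The difference was -0.25 (SE 0.13, 95% interval -0.53 to 0.03, adjusted p = 0.446 in limma), and -0.16 without transgenic replicate 4. Rxra, which encodes the partner receptor RXR alpha, gave 5.50, 5.67, 5.36 and 5.57 in wild-type and 5.34, 5.85, 5.31 and 5.30 in transgenic arrays. Transgenic replicate 2 was the highest of all 8 arrays for Rxra and the other 3 were the lowest, so the mean difference of -0.07 (SE 0.15, 95% interval -0.39 to 0.25) joins unlike values. Without replicate 2 it was -0.21 (SE 0.12, adjusted p = 0.555 in limma), and without replicate 4 it was -0.02.

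Cyp26b1, which encodes an enzyme that oxidises and so inactivates retinoic acid, lay at the background level, with 5.29 to 5.56 in wild-type and 5.13 to 5.53 in transgenic arrays. Its difference was -0.12 (SE 0.12, 95% interval -0.38 to 0.15), and it was -0.06 without transgenic replicate 2 and -0.19 without replicate 4. Its transgenic mean of 5.32 was at the background level.

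Over the 10 genes, 8 differences were negative and 2 positive, with a median of -0.10, against 50.3% negative and a median of -0.0016 over all genes tested. At an unadjusted p below 0.05 in limma 2 of the 10 were lower and 0 higher, where 6.6% of all genes were lower and 6.56% higher. The groups did not overlap for Dhrs3 and Aldh1a2, where 8.94% of all genes did not overlap: 4.94% were lower and 4% higher. Of the 4 members with a mean level of at least 6, 3 had a negative difference. When transgenic replicate 2 was left out, Rara and Rxra joined Dhrs3 and Aldh1a2 among the genes without overlap, 4 of 10, where 6.43% of all genes were lower without overlap, and Rara, Dhrs3 and Aldh1a2 had an unadjusted p below 0.05 in limma, where 12.4% of all genes did. For Rara and Rxra replicate 2 was the only transgenic array not below every wild-type array. Leaving it out was therefore bound to part their groups, and the 4 of 10 is no independent result. Without replicate 4 alone, only Dhrs3 and Aldh1a2 did not overlap. Without both replicates 2 and 4 the same 4 genes were lower without overlap, where 12.6% of all genes were, and Dhrs3 was the only 1 of the 10 at an unadjusted p below 0.05 in limma, where 13.3% of all genes were. Leaving out wild-type replicate 3 instead added Rdh10, as higher, to Dhrs3 and Aldh1a2 among the genes without overlap. The share of all genes without overlap was not counted for that setting.

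Transgenic replicate 2, the lowest array for Dhrs3 and Aldh1a2 and the highest for Rxra, also differed in markers of other cell types. The mean of 6 measured cDC1 markers was 8.21 on it, against 6.79 to 7.66 on the other transgenic and 7.27 to 7.76 on the wild-type arrays. Of these 6, 4 were highest on it, but Batf3 was the lowest of the 8 arrays (10.30). Irf8 was lower in the transgenic arrays without overlap (-0.49, SE 0.15, adjusted p = 0.161 in limma), with 10.32 on replicate 2. The 6 plasmacytoid dendritic cell markers averaged 8.16 on it against 6.66 to 7.30 and 6.32 to 7.18, and the 6 monocyte markers 7.21 against 5.87 to 6.94 and 5.83 to 6.20. Of the monocyte markers 2 were highest on it, Ly6c2 (10.38) and Ccr2 (7.85), and S100a8 was lowest on it. The 7 markers of NK and innate lymphoid cells averaged 7.79 on it, with 6.87 to 6.97 on the other transgenic and 6.51 to 7.38 on the wild-type arrays. Among the defining genes of these types, Klrb1c and Eomes of NK cells and S100a8 and S100a9 of monocytes were dim in both groups by their means. Klrb1c still reached 5.89 on transgenic replicate 2 and 5.64 on wild-type replicate 4. Ncr1 of NK cells lay above background in both groups (6.43 and 6.57), with 8.41 and 8.47 on those 2 arrays. Single markers rose in all 4 transgenic arrays, without overlap: Klrd1 of the NK list (2.84-fold, adjusted p = 0.00644 in limma), Bst2 of the plasmacytoid list (log2 difference 0.76, SE 0.13, adjusted p = 0.0204) and Cd4 of the T cell list (1.18, SE 0.13, adjusted p = 0.00437). Without these genes the means of the other markers of each of the 3 lists overlapped between the groups. The part of these markers in the values of the retinoic acid genes was not tested. In sorted cells measured in bulk, fewer cells that express a gene and less RNA of it per cell cannot be told apart.

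Other cells of the lymph node make retinoic acid too, above all stromal cells. Of 11 measured stromal markers 8 were dim in both groups, among them Pdpn, Pdgfra, Pdgfrb, Col1a2, Col3a1 and Dcn, and the list averaged 4.99 to 5.09 in wild-type and 4.98 to 5.14 in transgenic arrays. The 9 intestinal epithelial markers averaged 4.88 to 4.98 and 4.94 to 5.08, with 5 dim in both groups. Among them Krt20 was higher without overlap (0.95, SE 0.28, adjusted p = 0.135 in limma) but did not pass. Its wild-type mean of 4.38 was below background and its transgenic mean of 5.33 was at it. The 8 macrophage markers averaged 6.17 to 6.37 in wild-type and 6.44 to 6.78 in transgenic arrays, groups that did not overlap. Among them Adgre1, which encodes F4/80, rose (difference 1.29, SE 0.19, adjusted p = 0.0128 in limma), C1qa was lower without overlap (-0.17, SE 0.10) but did not pass, and Mertk and Fcgr1 were dim in both groups. Without Adgre1 the other 7 averaged 6.17 to 6.40 in wild-type and 6.33 to 6.66 in transgenic arrays, which overlap. The part of the macrophage markers in the values of the retinoic acid genes was not tested.

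**Figure D3:**
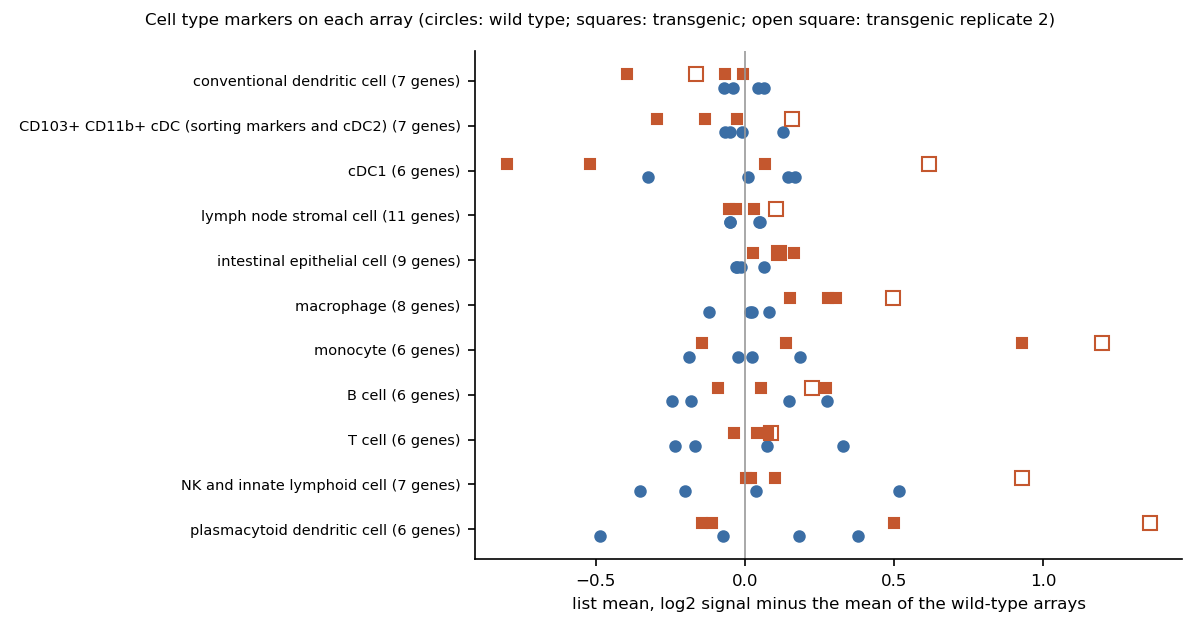
Mean log2 signal of each list of cell type markers on each array, relative to the mean of the 4 wild-type arrays, with wild-type arrays as circles and transgenic arrays as squares. Transgenic replicate 2 (open square) is the highest array for the cDC1, monocyte, NK, plasmacytoid and macrophage lists. It is also the highest, by little, for the CD103+ CD11b+ and stromal lists. The stromal and epithelial list means vary little.

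The genes whose pattern was most like that of Aldh1a2 were taken from 8559 other genes with a mean level of at least 6, by Pearson's correlation over the 8 arrays, with the correlation of deviations from the group means beside it. They were Tmem19 (0.983 and 0.969), Rhoc, a small GTPase of the actin cytoskeleton (0.980 and 0.980), Scpep1, a serine carboxypeptidase (0.979 and 0.966), Spred3, an inhibitor of growth factor signalling (0.975 and 0.941), and Ralb, another small GTPase (0.969 and 0.928). All 5 were lowest on transgenic replicates 2 and 4, as Aldh1a2 was. None of the 5 passed limma's test, with differences of -0.82 to -0.40 and adjusted p of 0.102 to 0.280. These correlations rest on 8 arrays and describe these arrays only. Dhrs3 ranked 152 in this order (0.890 and 0.726).

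A further 111 genes of the retinoid pathway and its surroundings, listed by function, were measured of 122 listed. Of the 111, 1 rose, 0 fell and 110 did not pass in limma, where 0.839% of all genes were called higher and 0.848% lower. Of these genes 35 were dim in both groups. The median difference was -0.02, with 58 negative and 53 positive.

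Genes of retinol uptake, storage and release showed no member past the threshold. Of 13 measured, 6 were dim in both groups, among them Lrat, which esterifies retinol for storage, and the median difference was -0.01. Stra6, a receptor that takes up retinol, lay at 6.97 ± 0.11 and 6.81 ± 0.38 (SD, n = 4 each; difference -0.17, SE 0.17). Cd36, a scavenger receptor for lipids, had the lowest moderated statistic (-0.35, SE 0.13, adjusted p = 0.261 in limma), and Lpl (0.21, SE 0.12), which was dim, and Bco2 (0.24, SE 0.16) had the highest.

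Of 23 measured enzymes that oxidise or reduce retinoids or other aldehydes and alcohols, 0 passed and 11 were dim in both groups, Aldh8a1 among them. The median was 0.12, and 14 of the 23 were positive. Aldh2, the mitochondrial enzyme that clears acetaldehyde, gave 9.14 ± 0.25 and 9.54 ± 0.39 (SD, n = 4 each; difference 0.40, SE 0.20, adjusted p = 0.438 in limma). Akr1b10, an aldo-keto reductase that can reduce retinal, was at 0.35 (SE 0.18). The lowest statistics belonged to Rdh7 (-0.26, SE 0.14) and Sdr16c5 (-0.17, SE 0.10), which were dim in both groups.

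Among 7 further genes of binding and breakdown, 0 passed and 5 were dim, including Cyp26a1, Cyp26c1 and Crabp1. Fabp5, which can carry retinoic acid to another nuclear receptor, was bright in both groups, with a mean of 12.54 in wild-type and 12.45 in transgenic arrays (difference -0.08, SE 0.13). Ugt2b1 had the lowest statistic (-0.57, SE 0.15, adjusted p = 0.0972 in limma), with all transgenic arrays below all wild-type arrays at levels that were dim in both groups. Cyp2c39 (0.22, SE 0.22) and Cyp26c1 (0.20, SE 0.17) had the highest.

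Of 15 other nuclear receptors, RARs, RXRs and partners of RXR, 0 passed. Rarb, which is both a receptor and a classical target of retinoic acid, gave 5.93, 5.95, 5.33 and 5.60 in wild-type and 5.96, 6.08, 5.99 and 5.92 in transgenic arrays. The transgenic arrays lay close together, 3 of the 4 above every wild-type array and replicate 4 within the wild-type range. The difference was 0.28 (SE 0.15, adjusted p = 0.455 in limma). Nr2f6, an orphan receptor, had the lowest statistic (-0.34, SE 0.14), followed by Vdr, the vitamin D receptor (-0.19, SE 0.12), and Nr2f2 was at 0.35 (SE 0.21) and dim. Pparg and Rxrg were dim in both groups.

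All 15 measured coactivators and corepressors lay above background, and 0 passed. Smarca4, the ATPase of the BAF chromatin remodelling complex, gave 9.61 to 9.82 in wild-type and 9.05 to 9.40 in transgenic arrays, groups that did not overlap (difference -0.46, SE 0.11, adjusted p = 0.0772 in limma). Ncoa2, a coactivator of nuclear receptors, was lower without overlap as well (-0.31, SE 0.11, adjusted p = 0.215 in limma). Carm1 (0.21, SE 0.11) and Nrip1 (0.11, SE 0.12) had the highest statistics.

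Targets of retinoic acid held no gene past the threshold. Of 21 measured, 0 passed, 13 were positive and 8 negative, 9 were dim in both groups, and the median was 0.04. Asb2, a subunit of a ubiquitin ligase first found as a gene induced by retinoic acid, gave 7.74, 7.33, 7.28 and 7.62 in wild-type and 6.83, 6.86, 6.75 and 5.80 in transgenic arrays. Every transgenic array was below every wild-type array, and replicate 4 was the lowest (difference -0.93, SE 0.23, adjusted p = 0.0794 in limma). Plaat3, a phospholipase, was at -0.55 (SE 0.16, adjusted p = 0.123 in limma), Btg2, an antiproliferative gene, at 0.28 (SE 0.11, adjusted p = 0.254 in limma) with every transgenic array above every wild-type array, and Tgm2 and Hic1 at -0.12 and 0.01. Thus 1 target was lower and 1 higher without overlap, where 4.94% and 4% of all genes were.

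The list gathered as signals that raise Aldh1a2 in dendritic cells held the only gene past the threshold. Whether each of its genes, Ptgs2 for example, raises or lowers Aldh1a2 was not tested here. Of 23 measured, 1 rose, 0 fell, and 15 were negative, with a median of -0.23. The gene that rose was Csf2rb2, which encodes the receptor beta chain that is specific for interleukin 3 in the mouse and nearly identical to the common beta chain encoded by Csf2rb, so that probes may be shared. It gave 10.46, 10.46, 10.65 and 10.21 in wild-type and 11.41, 11.05, 11.54 and 10.88 in transgenic arrays, groups that did not overlap (difference 0.77, SE 0.16, adjusted p = 0.0466 in limma). The call was lost when any of the wild-type replicates 1 to 4 or of the transgenic replicates 1 to 3 was left out (adjusted p of 0.0716 to 0.121 in limma), without variance moderation (0.185) and with arrays centred on their medians (0.0644). Csf2rb itself was at -0.08 (SE 0.19), and Tlr2, a receptor for bacterial lipoproteins, at 0.30 (SE 0.19).

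On the other side, 7 genes of that list were lower without overlap, where 4.94% of all genes were, and none of the 7 passed. Itgb8, the integrin beta chain with which intestinal dendritic cells activate TGF beta, gave 7.60, 7.40, 8.00 and 8.23 in wild-type and 7.22, 6.87, 6.31 and 6.09 in transgenic arrays (difference -1.18, SE 0.26, adjusted p = 0.0536 in limma). Ptgs2, the inducible cyclooxygenase, was at -0.49 (SE 0.12, adjusted p = 0.0772 in limma). The other 5, named after their values were seen, were Csf2ra, the alpha chain of the GM-CSF receptor (-0.53, SE 0.16), Il4ra, the interleukin 4 receptor chain (-0.39, SE 0.12), the transcription factors behind these receptors, Stat5a (-0.70, SE 0.18) and Stat6 (-0.71, SE 0.20), and Lrp5, a Wnt co-receptor (-0.43, SE 0.15). Their adjusted p ran from 0.0869 to 0.226 in limma. Of these 7 genes, 6 were lowest on transgenic replicate 4, the array least like its group: Itgb8, Ptgs2, Stat5a, Stat6, Il4ra and Csf2ra. Without that array Stat5a passed, and so did Asb2. Itgb8 passed as lower without transgenic replicate 1 and under 4 alternatives of moderation, filter or normalization, and Ptgs2 under 3.

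**Figure D4:**
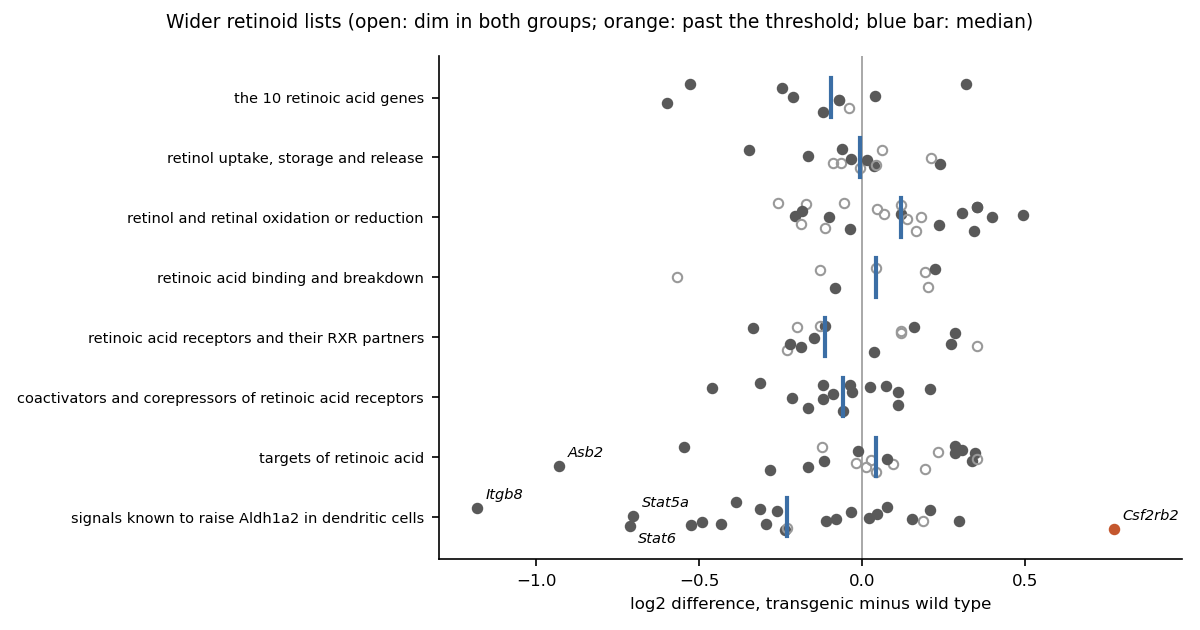
Log2 difference (transgenic minus wild type) of the 10 retinoic acid genes and of the genes of 7 wider lists, a point per gene, open where the gene is dim in both groups, with the median of each list as a blue bar. Csf2rb2 (0.77) is the only gene past the threshold, and Itgb8 (-1.18) and Asb2 (-0.93) have the lowest differences. For the list labelled as raising Aldh1a2, that direction was not tested gene by gene.

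The differences of Aldh1a2 and Dhrs3 kept their sign under all 20 alternatives run for each, which changed the moderation, the filter, the normalization, the weights or the arrays. For most of these the sign was fixed in advance. Moderation, filter, probe set choice and replicate block left the difference itself unchanged. Leaving out or weighting arrays cannot turn the sign where the groups do not overlap. The differences ran from -0.64 to -0.24 for Aldh1a2, with adjusted p from 0.102 to 0.464 in limma, and from -0.66 to -0.42 for Dhrs3, with adjusted p from 0.0734 to 0.283. Neither gene passed the threshold under any of the alternatives.

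**Figure D5:**
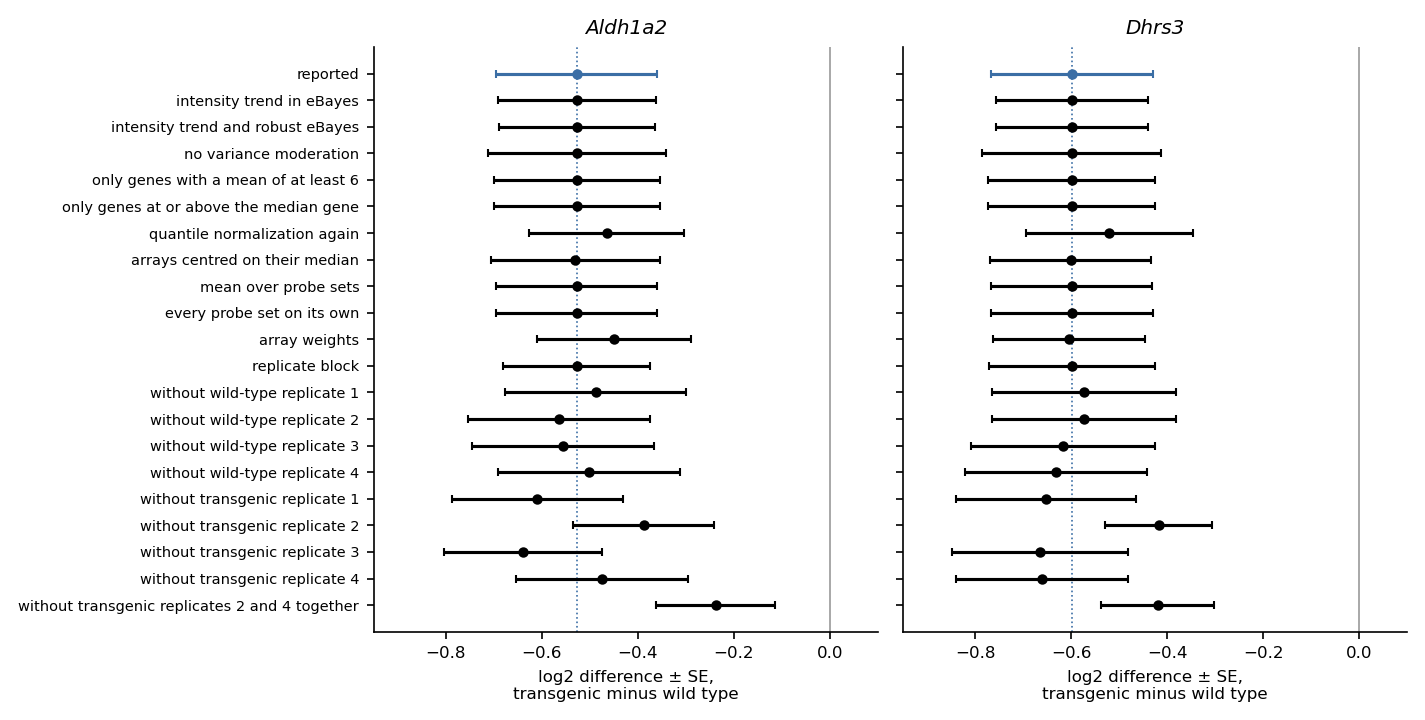
Log2 difference of Aldh1a2 and Dhrs3 (points) with its SE (bars) in the reported fit and under each of the 20 alternatives; the dotted line is the reported value. Leaving out transgenic replicate 2 moves both genes towards 0, to -0.39 and -0.42, and leaving out replicate 4 as well moves Aldh1a2 to -0.24.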

How the data were processed

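Gene expression was measured on 8 arrays, 4 wild type and 4 hBcl-2 transgenic by the genotype in the labels, from 2.5 ng of total RNA per array per the labels' protocols. The values are log2 signals per probe set deposited by the authors. They were made with tools listed as RMA and Partek, without versions, per the submitters' processing notes. RMA makes the distributions of the arrays more alike, so a shift of all genes may not be seen. The deposited distributions still differed: the SD over probe sets was 2.00 on transgenic replicate 4 and 2.07 to 2.11 on the other arrays. After quantile normalization again the difference of Aldh1a2 was -0.46 (SE 0.16, adjusted p = 0.213 in limma). That of Dhrs3 was -0.52 (SE 0.17, adjusted p = 0.192 in limma). Any filter the authors applied and the build of the annotation were not stated in the labels. Arrays have no read depth, and their number limits the precision.

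Of 34390 probe sets, 23521 name 1 gene in the platform's annotation, 1814 several and 9055 none. Only the first were tested, with the brightest set for each of 22180 genes and no filter on signal. Transgenic minus wild type was tested per gene in limma (version 3.58.1, under R 4.3.3; functions lmFit and eBayes). P-values were adjusted by Benjamini-Hochberg across the whole table, and 0.05 was the threshold. The fit was tested on simulated data. Errors are the SD over arrays or the moderated SE, and intervals are 95% intervals. Lists are described by counts and medians, with no list test. The members and lists were chosen with earlier results of these data known. All members were named. From each wider list the text names the genes past the threshold and the 2 highest and 2 lowest moderated statistics, and for Aldh1a2 the 5 genes most like it, leaving out predicted genes. Other genes were named as examples after their values were seen. Promoters are RefSeq's for GRCm38.p6. Plots were made in Python 3.11.15 (matplotlib 3.10.9). The files and labels give no scan or extraction batch. Alternatives changed the moderation, the filter on dim genes, the normalization, the probe sets, the array weights, the threshold and the arrays used, and leaving out transgenic replicates 2 and 4 together was added after seeing the data.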

Additional observations from a re-analysis of the deposited data

Results flagged for a closer look

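Among the 20 sets of 4 values (10 genes in 2 groups), 2 held an array whose gap to its neighbour took up more of the group's range than Dixon's critical value allows. About 1 in 20 such sets is flagged by chance. Both were transgenic replicate 2. For Dhrs3 it gave 9.54, while the other transgenic arrays gave 10.25 to 10.28. For Rxra it gave 5.85, while the others gave 5.30 to 5.34. The same array had the highest mean of the cDC1, monocyte, NK, plasmacytoid and macrophage marker lists and, by little, of the CD103+ CD11b+ and stromal lists. The part of those markers in these values was not tested.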

How the results depend on the processing

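The count of members past the threshold was 0 under all 21 alternatives. The number at an unadjusted p below 0.05 was 2, between 2 and 3 with an array left out, and 1 in limma without transgenic replicates 2 and 4 together, a choice made after seeing the data. The number without overlap was 2, between 2 and 4 with an array left out, and 4 without those 2 replicates. Of the members, 8 were lower, 6 to 9 with an array left out, and 3 of the 4 left where genes under a mean of 6 were left out. The count of wider genes past the threshold was 1, and 2 with an intensity trend, 3 with a trend and robust moderation, 0 without moderation, 5 where dimmer genes than a mean of 6 were left out, 2 where genes dimmer than the median gene were, 2 after quantile normalization again, 0 with centred arrays, 7 at a threshold of 0.1, and 0 to 3 with an array left out. All genes added to Csf2rb2 in these settings were lower in transgenic arrays: Itgb8, Ptgs2, Asb2, Smarca4, Stat5a and Ugt2b1. Differences near 0 turned sign with an array left out: Aldh1a3 ran from -0.17 to 0.062, Dhrs9 from -0.18 to 0.0057 and Crabp2 from -0.021 to 0.089.

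With the replicate number as a block the differences of Aldh1a2 and Dhrs3 had adjusted p of 0.187 and 0.185 in limma, 0 members and 1 wider gene passed, and the block changed no call of a member. Over all genes 187 passed with the block, against 374 without it, and the numbers are not stated to pair arrays: deviations of same-numbered arrays from their group means correlated at -0.03 to 0.08 over 4 pairs, and 2 of 8 arrays correlated best with their own number. The count over all genes was 35 without moderation, 747 at a threshold of 0.1, 106 to 379 with an array left out and 148 without transgenic replicates 2 and 4. Where the cause of such a move is not a smaller number of arrays or another threshold, the cause was not tested. Levels near 5.32 limit what can be seen for Crabp2, Cyp26b1, Rxra, Dhrs9 and Aldh1a3.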

Other observations

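Other groups next to the pathway, chosen after the values were seen, gave 0 genes past limma's threshold. Of 5 genes of vitamin D metabolism and its receptor, Cyp27a1, a mitochondrial sterol hydroxylase, gave 8.74, 9.11, 8.91 and 8.70 in wild-type and 9.59, 9.17, 9.67 and 9.36 in transgenic arrays, groups that did not overlap (difference 0.58, SE 0.14, unadjusted p = 0.00221 and adjusted p = 0.0803 in limma). Cyp2r1, which makes 25-hydroxyvitamin D, was higher without overlap too (0.69, SE 0.22, adjusted p = 0.170 in limma), from a wild-type mean of 5.12 at background. Cyp27b1 and Cyp24a1 were dim in both groups. Among all genes 4% were higher without overlap.

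Of the 18 measured aldehyde dehydrogenase genes other than the ALDH1A genes above, Aldh1a7 included, 10 had positive and 8 negative differences, with a median of 0.05, and 8 were dim in both groups. Aldh18a1, which makes a precursor of proline, gave 6.35 to 6.81 in wild-type and 6.91 to 7.70 in transgenic arrays (difference 0.52, SE 0.18, adjusted p = 0.222 in limma).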
